A study of Rattus norvegicus with 12 samples.

Results

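The comparison was the region by congestion interaction, that is, the change with congestion in outer medulla (Om) minus the change with congestion in cortex (Cx). It used all 12 of the 12 arrays, 3 in each of 4 groups, and was tested across 18166 named genes. The 4 groups were cortex of control kidneys, cortex of congestive kidneys, outer medulla of control kidneys and outer medulla of congestive kidneys. The animals were males of the Sprague-Dawley strain at an age of 7 to 9 weeks, and in all of them the inferior vena cava had been ligated between the renal veins. The left kidney drains upstream of the ligature and was the congestive kidney, and the right kidney of the same rats was the control kidney. RNA was taken at day 3, and both groups of kidneys had therefore gone through the same operation in the same circulation. Since both tissues were cut from each kidney, the regions are not independent animals. The replicate numbers in the labels are the only record of which arrays belong together. For number 3 in cortex the title and the source name give different numbers. The p-values measure the spread of the changes within 6 pairs of arrays, pooled over both regions. Each pair is a congestive and a control kidney of the same region and number.

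The cortex holds the glomeruli, the convoluted parts of the proximal tubule, the distal convoluted tubule and the connecting tubule. The outer medulla holds the straight last part of the proximal tubule (S3), most thick ascending limbs and the vascular bundles of descending vasa recta, and its tubules work close to the limit of their oxygen supply. A tissue block mixes all of these cells, so fewer cells of a type and less RNA per cell cannot be told apart in the values below. A positive difference means that the change was more upward in outer medulla than in cortex, and a negative one that it was more downward.

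Levels are log2 values that had been normalized between arrays, with array medians of 6.02 to 6.09. Signal over background is unknown, so a fall in a gene may not have been measurable in a region where its levels were well below these medians. Examples are Syt10, Ndp, Anxa13, Grpr and Cyp1a1 in cortex, and Klk1c3, Hsd17b2, Mlana and Pappa2 in outer medulla. The labels name the tissue outer medulla, whereas the study's protocol speaks only of cortex and medulla, so how much inner medulla the blocks held is not known. The region labels held: 8 of 9 measured cortex markers and 11 of 11 outer medulla markers were separated between regions in both control and congestive kidneys, the exception being Pvalb. The mean level of the cortex markers was 8.06 to 8.18 in the outer medulla of the control kidneys, and 7.84, 7.25 and 8.53 in that of the congestive kidneys (numbers 1, 2 and 3). The mean level of the outer medulla markers there was 10.46 to 10.72 in the control kidneys and 9.79 to 10.2 in the congestive kidneys. The congestive blocks of outer medulla thus varied more in these markers than the control blocks did, and the part of this in the differences between regions was not tested.

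At an adjusted p under 0.05 (limma, Benjamini-Hochberg over all genes), 294 genes differed between the regions in their response, which is 1.62% of those tested. The change was higher in outer medulla for 146 genes (0.804%) and lower for 148 (0.815%). At an unadjusted p under 0.05 there were 2766. Of the 294, 22 rose in cortex and fell in outer medulla, and 13 fell in cortex and rose in outer medulla. A further 28 were cortex-limited, meaning called in cortex, not called in outer medulla and changed there by less than 0.3 (15 rises and 13 falls). There were 135 outer medulla-limited genes by the same rule, with 50 rises and 85 falls. In 58 genes both regions rose and the outer medulla rose more, in 5 both rose and the cortex rose more, in 5 both fell and the outer medulla fell more, and Umod fell in both and more in cortex. The last 27 met none of these definitions. The count depended on the arrays used. Without number 1, 2 or 3 in both regions it was 0, 9 and 43, at 2 residual degrees of freedom instead of 4. All 294 differences kept their sign there, which was fixed in advance, since each had the same sign in all 3 numbers. Each kept an unadjusted p under 0.05 (limma), but on arrays that had served to pick these genes. Without 1 pair of 1 region the count was 45 (outer medulla number 1) to 389 (outer medulla number 3). Without the pair terms 149 genes were called, and 91 of the 294 were called under each of 5 alternatives that used all arrays and genes. Of the 103 called genes named by rule, 59 lost the call without the pair terms and 28 with the regions paired by number.

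**Figure D1:**
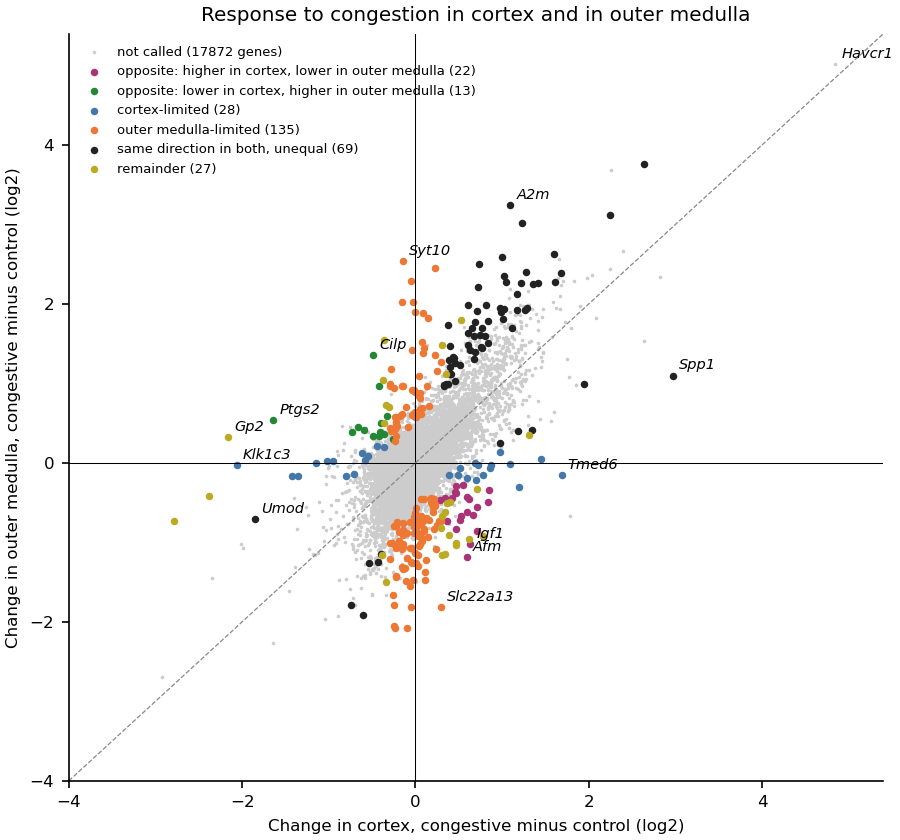
Change with congestion in cortex (x axis, log2) against change in outer medulla (y axis, log2), 1 point per gene, coloured by class for the 294 genes that differed between regions. The broken line marks equal change. Ptgs2 and Cilp lie upper left, Igf1 and Afm lower right, and Havcr1, which rose in both regions, lies close to the line.

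The 13 genes that fell in cortex and rose in outer medulla were all higher in cortex than in outer medulla in the control kidneys. Their median level in cortex was 8.64 there and 8.14 in the congestive kidneys, and in outer medulla it was 7.25 and 7.84. The median absolute distance between regions was 1.28 in control and 0.68 in congestive kidneys. A gene's difference equals its distance (outer medulla minus cortex) in congestive kidneys minus that in control kidneys. Selecting genes by the difference therefore favours a control distance of the opposite sign, here and in the classes below. Over all genes the distance was smaller in congestive kidneys in 55%, with medians of 0.146 and 0.132, and over the 294 in 69.4%. Ptgs2, which encodes the inducible cyclooxygenase of prostaglandin synthesis and in the cortex is made mainly in the macula densa and the thick limb beside it, had the widest difference. Its levels in cortex were 8.69, 8.44 and 8.81 in control and 7.38, 6.47 and 7.15 in congestive kidneys, and in outer medulla 6.80, 7.55 and 7.41 in control and 7.64, 7.73 and 7.99 in congestive kidneys. The groups did not overlap in either region, and in the congestive kidneys every outer medulla array lay above every cortex array, the reverse of the control kidneys. The difference between the changes was 2.18 (standard error 0.21, adjusted p = 0.0071), from a fall by 1.64 in cortex and a rise of 0.53 in outer medulla.

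Cilp, a matrix protein of cartilage and fibrous tissue, had cortex levels of 6.27, 5.81 and 6.09 in control and 5.83, 5.20 and 5.68 in congestive kidneys. In outer medulla it was 5.41, 5.34 and 5.04 in control and 6.78, 6.93 and 6.17 in congestive kidneys. The outer medulla groups were far apart, while the cortex groups overlapped at 1 array and separated only within pairs. The difference was 1.85 (standard error 0.14, adjusted p = 0.0048). Plbd1, a phospholipase B-like protein of lysosomes, fell from 8.97 ± 0.04 to 8.55 ± 0.13 in cortex and rose from 7.11 ± 0.23 to 8.07 ± 0.08 in outer medulla (mean ± SD, n = 3; difference 1.39, adjusted p = 0.010). Cpm, the membrane carboxypeptidase M, differed by 1.12 (adjusted p = 0.012), Phactr1, a regulator of protein phosphatase 1 and actin, by 1.11 (adjusted p = 0.015), and Acsf2, an acyl-CoA synthetase of mitochondria, by 1.01 (adjusted p = 0.015).

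The other 7 were smaller in size. Cyba, the membrane subunit p22phox of NADPH oxidases, was 10.77, 10.84 and 10.85 in control cortex and 10.57, 10.43 and 10.48 in congestive cortex. In outer medulla it was 8.93, 8.83 and 8.97 in control and 9.52, 9.40 and 9.57 in congestive kidneys. No group overlapped another, and the difference was 0.92 (adjusted p = 0.011). Tgfb2, a ligand of the TGF-beta family, fell by 0.41 in cortex and rose by 0.39 in outer medulla (difference 0.81, adjusted p = 0.047), close to the threshold. Tspan2, Mlph, Tnfsf13 (the cytokine APRIL), Slc38a7 (an amino acid transporter) and Tmem181 made up the rest, with differences of 0.90, 0.83, 0.75, 0.73 and 0.56.

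Promoters are shown for this class, and the Igf1 promoter is shown beside them as that of a gene that moved the other way. RefSeq promoters of the GRCr8 build, 300 bases each and mostly upstream of the gene's start, were matched by gene ID to 219 of the 294 genes, 11 of these 13 and 14502 of all genes tested. A set of 6 short motifs, named here by their letters and searched on both strands, was counted in them. CACGTG, the E-box read by basic helix-loop-helix factors, was in 5 of 11 promoters, against 7.86% of the promoters of genes tested, and ACGTG, which every CACGTG contains, was in 6 of 11 (21.8%). GCGTG was in 6 of 11 (39.4%), TGANTCA in 1 (6.39%), and TATAAA and GTTAAT in 0 (11.9% and 6.16%). In the 17 promoters of genes that moved the other way the counts were 1 for CACGTG, 2 for ACGTG, 5 for GCGTG, 3 for TGANTCA, 3 for TATAAA and 2 for GTTAAT. The motifs were picked with the classes known, and these counts are a description without a test. The Ptgs2 promoter (chr13:64713813-64714112, plus strand) and the Igf1 promoter (chr7:24172282-24172581, plus strand) follow, with matches to any of the motifs in capitals. Ptgs2 held GCGTG and CACGTG, and Igf1 held none of them.
Ptgs2: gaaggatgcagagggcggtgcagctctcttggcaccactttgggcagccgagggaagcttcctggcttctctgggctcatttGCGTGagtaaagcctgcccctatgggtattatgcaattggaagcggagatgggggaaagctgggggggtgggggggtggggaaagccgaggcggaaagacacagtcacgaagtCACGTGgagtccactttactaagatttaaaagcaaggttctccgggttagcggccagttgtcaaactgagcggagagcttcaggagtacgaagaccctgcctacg
Igf1: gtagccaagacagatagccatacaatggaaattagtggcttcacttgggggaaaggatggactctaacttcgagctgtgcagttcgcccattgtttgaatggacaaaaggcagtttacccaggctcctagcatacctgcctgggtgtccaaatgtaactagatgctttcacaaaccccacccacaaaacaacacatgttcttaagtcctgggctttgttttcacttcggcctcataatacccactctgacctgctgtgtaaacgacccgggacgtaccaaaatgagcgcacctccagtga

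The E-box of each of the 5 promoters is shown with 12 bases on either side, CACGTG in capitals, at chr4:171260469-171260498 (Plbd1, minus strand), chr13:64713996-64714025 (Ptgs2), chr19:9215340-9215369 (Slc38a7), chr13:100792897-100792926 (Tgfb2, minus strand) and chr1:49247553-49247582 (Tmem181, the nearer of its 2 to the start). The bases around the motif differed between the genes.
Plbd1: ggttcccaaggcCACGTGaagcgcccaagc
Ptgs2: cagtcacgaagtCACGTGgagtccacttta
Slc38a7: gtgattcaaactCACGTGtttctagagtcg
Tgfb2: cactcatccacaCACGTGtggaaggcaggg
Tmem181: gcggcttccgcgCACGTGaccgcgcagtcg

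Of the 22 genes that rose in cortex and fell in outer medulla, 20 were higher in outer medulla than in cortex in the control kidneys. Their median levels were 7.43 in cortex and 9.47 in outer medulla in control kidneys, and 7.95 and 8.91 in congestive kidneys, and the distance between regions was 1.99 and 0.90. Igf1, which encodes insulin-like growth factor 1 and in the rat kidney is made mainly in medullary thick ascending limbs, was 8.71, 8.56 and 8.30 in control cortex and 9.39, 9.14 and 8.94 in congestive cortex. In outer medulla it was 10.78, 10.59 and 10.40 in control and 9.92, 9.57 and 9.21 in congestive kidneys. No 2 groups of the same region overlapped, and the levels of the regions, which were apart in the control kidneys, met at 9.21 to 9.39 in the congestive ones. The difference was -1.66 (standard error 0.12, adjusted p = 0.0048), from a rise of 0.64 in cortex and a fall by 1.02 in outer medulla.

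Afm, the vitamin E-binding plasma protein afamin of the albumin family, had the largest negative difference of the class. It was 7.75, 7.77 and 6.93 in control cortex and 8.14, 8.24 and 7.85 in congestive cortex, and 10.44, 10.20 and 10.52 in control outer medulla and 9.34, 8.63 and 9.63 in congestive outer medulla. All 4 groups were apart within their region, with number 2 the lowest of the congestive outer medulla arrays. The difference was -1.78 (standard error 0.21, adjusted p = 0.011, and 0.0518 without the pair terms). The neighbouring albumin family gene Gc, the vitamin D-binding protein, was outer medulla-limited, with a fall by 1.79 there and -0.25 in cortex, and Albfm1 fell by 1.16 in outer medulla. Alb and Afp, of the same family, were not called in any comparison, with differences of -0.01 and 0.09.

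Melk, a kinase of dividing cells, differed by -1.57 (adjusted p = 0.015), Pigz, an enzyme of glycosylphosphatidylinositol anchors, by -1.33 (adjusted p = 0.028), Cryab, a small heat shock protein, by -1.32 (adjusted p = 0.0080) and Pld1, a phospholipase D, by -1.30 (adjusted p = 0.0066). Cryab fell from 11.64 ± 0.09 to 10.99 ± 0.19 in outer medulla, where its groups did not overlap. In cortex its levels of 7.80, 8.52 and 7.51 in control and 8.33, 9.41 and 8.10 in congestive kidneys overlapped and rose only within pairs. Pld1 was 9.25 ± 0.09 and 8.41 ± 0.06 in outer medulla, and in cortex 7.34, 7.49 and 7.04 against 7.83, 7.93 and 7.50, where the groups nearly touched. Without the pair terms Melk, Pigz and Cryab were not called (adjusted p = 0.0739, 0.256 and 0.213) and Pld1 was (0.00861).

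Among the others, Slc4a7, the sodium bicarbonate cotransporter NBCn1 of the thick ascending limb, was 6.63, 6.39 and 6.59 in control cortex and 7.24, 7.51 and 7.42 in congestive cortex. In outer medulla it was 9.54, 9.87 and 9.22 in control and 9.32, 9.52 and 8.76 in congestive kidneys. The cortex groups were apart and the outer medulla groups overlapped (difference -1.20, adjusted p = 0.014). Ace, the angiotensin-converting enzyme, rose by 0.62 in cortex and fell by 0.45 in outer medulla, the latter with overlapping groups (difference -1.07, adjusted p = 0.042, and 0.275 without the pair terms). Cyp2j4, an arachidonic acid epoxygenase, differed by -1.22, Ndst1, an enzyme of heparan sulfate synthesis, by -1.09, Tyro3, a receptor tyrosine kinase of the TAM family, by -0.83, Eci1, an isomerase of fatty acid oxidation, by -0.82, and Ckb, the brain-type creatine kinase, by -0.77.

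**Figure D2:**
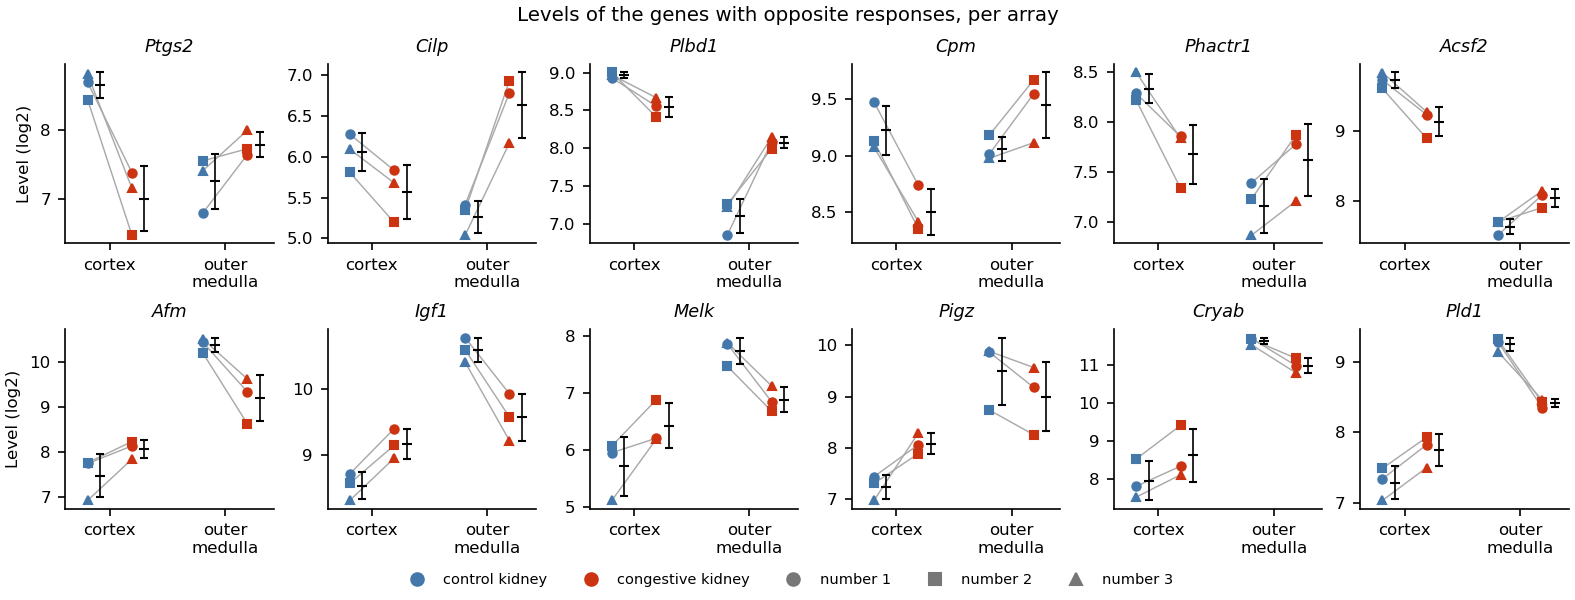
Level (log2) in each array of the 6 genes with the largest difference in each opposite class, with control kidneys in blue and congestive kidneys in red, lines joining arrays of the same replicate number, and black bars giving mean ± SD of 3 arrays. Upper panels fell in cortex and rose in outer medulla, such as Ptgs2 from 8.65 to 7.00 and from 7.25 to 7.79. Lower panels did the reverse, such as Igf1 from 8.52 to 9.16 and from 10.59 to 9.57.

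The IGF system was the list with the largest share of members called. IGF1 signals through its receptor Igf1r, binding proteins hold IGFs in the interstitium, pappalysins cut some of these binding proteins and so release IGF, and Igf2r clears IGF2. Of 17 measured members, 7 differed between regions (41.2%), against 1.62% of all genes. Igf1 was the only one with a negative difference among them, and Igfbp1, Igfbp4, Igfbp5, Igfbp6, Igf2r and Pappa2 had positive ones. The list's median difference was 0.23, beside 0.00410 over all genes.

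Igfbp4 was 9.03, 8.68 and 8.89 in control cortex and 8.61, 8.47 and 8.66 in congestive cortex. In outer medulla it was 7.31, 7.23 and 7.42 in control and 8.40, 8.75 and 8.35 in congestive kidneys. Only the change in outer medulla was called, and its congestive levels came to lie among those of the cortex (difference 1.46, standard error 0.16, adjusted p = 0.011). Igfbp1, the binding protein that insulin lowers and stress raises in liver, changed in the same way, at 7.65, 7.73 and 7.66 against 9.00, 9.56 and 9.03 in outer medulla and by 0.08 in cortex (difference 1.44, adjusted p = 0.011). Igfbp6 rose by 0.91 in outer medulla and changed by -0.02 in cortex (difference 0.93, adjusted p = 0.044).

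Igfbp5 rose by 0.50 in outer medulla and was 0.36 lower in cortex, which missed the threshold (adjusted p = 0.052), and its difference was 0.86 (adjusted p = 0.029). Igf2r differed by 0.56 (adjusted p = 0.043). Pappa2, the pappalysin of the macula densa that cuts IGFBP3 and IGFBP5, was cortex-limited, and its levels are given below with the macula densa. The remaining 10 members were not called. Among these Igf1r differed by -0.34 (standard error 0.13, adjusted p = 0.27), Igfbp3 by 0.72 (standard error 0.21, adjusted p = 0.14) and Igf2 by 0.14 (adjusted p = 0.63).

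**Figure D3:**
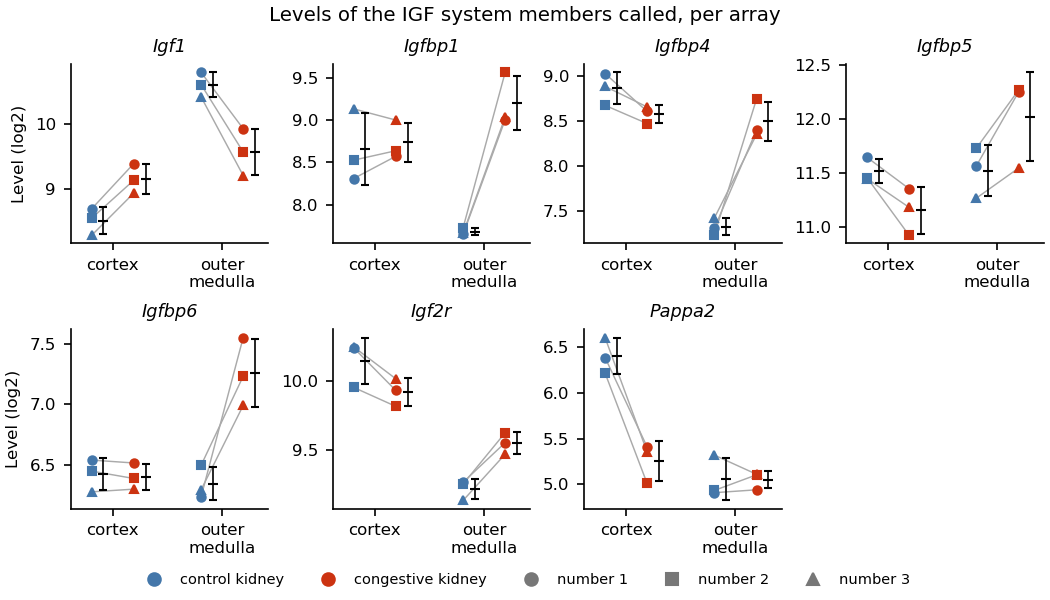
Level (log2) in each array of the 7 IGF system members that differed between regions, drawn as in the plot of opposite genes, with mean ± SD of 3 arrays. Igf1 alone fell in outer medulla, the binding proteins Igfbp1, Igfbp4, Igfbp5 and Igfbp6 rose there, and Pappa2 fell in cortex from 6.41 to 5.26.

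The macula densa, whose gene Pappa2 was cortex-limited, is the plaque of thick limb cells at the glomerulus that senses the salt of the tubular fluid. Of 9 measured genes of its list 3 were called (33.3%, against 1.62% of all genes), all with positive differences, namely Ptgs2, Pappa2 and Robo2. Pappa2 was 6.39, 6.22 and 6.61 in control cortex and 5.41, 5.01 and 5.36 in congestive cortex, while in outer medulla it was 4.91, 4.93 and 5.32 against 4.94, 5.10 and 5.11. The cortex groups were apart, and the congestive ones came near the outer medulla's level, where no change was called (difference 1.14, standard error 0.14, adjusted p = 0.013). Robo2, an axon guidance receptor also found on podocytes, had a rise of 1.36 that was limited to outer medulla (difference 1.13, adjusted p = 0.020). Nos1, the defining macula densa enzyme, was not called (difference -0.12, adjusted p = 0.75).

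Of the connecting tubule list, 4 of 18 measured genes were called (22.2%, against 1.62% of all genes), namely Klk1c3, Klk1c9, Klk1c10 and the calcium pump gene Atp2b4. The first 3 are kallikreins, serine proteases related to tissue kallikrein, and fell in cortex. Klk1c3 was 5.21, 6.03 and 5.71 in control cortex and 3.55, 3.77 and 3.44 in congestive cortex, and stayed between 2.90 and 3.24 in all 6 outer medulla arrays. Its fall by 2.06 brought the cortex close to the outer medulla (difference 2.04, standard error 0.20, adjusted p = 0.0074). Klk1c9 and Klk1c10 fell by 2.39 and 2.78 in cortex (differences 1.97 and 2.05, adjusted p = 0.024 and 0.043). Both calls were lost without the pair terms (0.249 and 0.228), and that of Klk1c10 also with the regions paired by number (0.0567). These genes are close paralogs, and their probes may share signal. The 2 rows of Klk1c10 differed from each other, at 2.05 and 0.76. Klk1, tissue kallikrein itself, was called as lower in both regions, with changes of -2.35 (cortex) and -1.45 (outer medulla). Its difference of 0.90 was not called (standard error 0.62, adjusted p = 0.57) and ranged from 0.25 without number 3 to 1.59 without the outer medulla pair of number 2.

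Of 26 measured thick ascending limb genes 3 were called (11.5%, against 1.62% of all genes), Umod, Gp2 and Cldn19. Umod, which encodes uromodulin, fell by 1.85 in cortex, and in outer medulla it fell by 0.71, from 13.03 ± 0.01 to 12.32 ± 0.12 (difference 1.15, adjusted p = 0.015). The outer medulla levels lay near the top of the range of values on these arrays (13.5), and whether the signal still rose in proportion there was not tested. Gp2, a glycoprotein related to uromodulin, had the largest difference of these, 2.49 (standard error 0.32, adjusted p = 0.014). It was 8.78, 8.76 and 8.94 in control cortex and 6.95, 6.80 and 6.24 in congestive cortex, and 8.10, 8.18 and 8.05 in control outer medulla and 9.07, 8.31 and 7.93 in congestive outer medulla. Its outer medulla groups overlapped, with number 1 far above the rest. Cldn19, a tight junction claudin for magnesium and calcium, rose in cortex only, from 7.48 ± 0.05 to 8.34 ± 0.21 (difference -0.93, adjusted p = 0.022). The list's median difference was -0.01.

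Other cortex-limited falls were Gldc, the glycine decarboxylase (difference 1.26, adjusted p = 0.044), Tlr12, a toll-like receptor of rodents (1.19, adjusted p = 0.024), Mlana (1.04), Hsd17b2, which inactivates sex steroids (0.97), Wnk1, the kinase that in its short form acts in the distal convoluted tubule (0.75, and 0.45 for its dimmer row), and Gpx1, a glutathione peroxidase (0.64). Hsd17b2 was 7.04, 6.53 and 6.69 in control cortex and 5.95, 5.48 and 5.97 in congestive cortex and remained at 5.04 to 5.28 in outer medulla. Of the 13 falls, 12 were of genes higher in cortex in the control kidneys.

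The genes of cortex-limited rises were higher in outer medulla than in cortex in the control kidneys in 15 of 15 cases. Tmed6, a protein of the early secretory pathway, was 6.19, 6.39 and 6.04 in control cortex and 7.65, 8.15 and 7.88 in congestive cortex, and 7.79, 7.93 and 7.73 in control and 7.41, 7.57 and 7.99 in congestive outer medulla. The cortex of the congestive kidneys thus reached the level of the outer medulla, whose groups overlapped (difference -1.84, standard error 0.20, adjusted p = 0.0089). Hspa2, a member of the HSP70 family, rose from 5.55 ± 0.09 to 7.00 ± 0.56 in cortex and was 8.54 ± 0.16 and 8.59 ± 0.19 in outer medulla (difference -1.40, adjusted p = 0.030). Ust5r, a rat organic anion transporter, Serpinb8, a serine protease inhibitor, Slc41a2, a magnesium transporter, and Gstp1, a glutathione transferase, had differences of -1.49, -1.10, -0.94 and -0.92. Reg3g, a secreted antimicrobial lectin, rose by 0.97 in cortex, at 4.97, 5.15 and 4.81 against 6.04, 5.90 and 5.91.

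**Figure D4:**
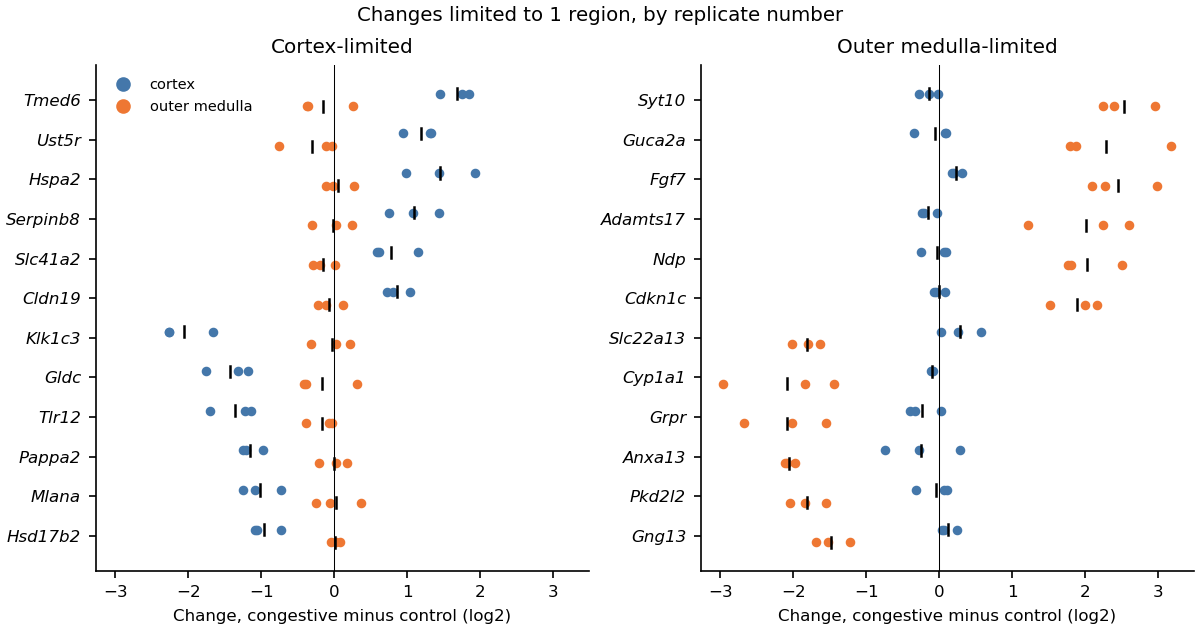
Change with congestion (log2) in cortex (blue) and outer medulla (orange) for each replicate number, with the mean of 3 as a black tick, for the 6 genes of largest difference in each direction among cortex-limited (left) and outer medulla-limited genes (right). Points of the other region lie around 0, while Tmed6 rose by 1.69 and Klk1c3 fell by 2.06 in cortex, and Syt10 rose by 2.54 and Slc22a13 fell by 1.81 in outer medulla.

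Falls limited to the outer medulla were the most numerous class, with 85 genes, of which 84 were higher in outer medulla than in cortex in the control kidneys. Their median level was 8.38 in control and 7.32 in congestive outer medulla, and 6.55 and 6.72 in cortex. Slc22a13, an organic anion and urate transporter of the proximal tubule, was 9.82, 9.99 and 10.16 in control and 8.03, 7.99 and 8.53 in congestive outer medulla. In cortex it was 5.77, 5.74 and 5.03 in control and 6.04, 5.77 and 5.61 in congestive kidneys. The outer medulla groups were apart by more than 1 and the cortex groups overlapped (difference -2.10, standard error 0.17, adjusted p = 0.0053). Slc22a24, which in humans transports steroid conjugates, fell by 1.47 in outer medulla and changed by -0.03 in cortex (difference -1.44, adjusted p = 0.037).

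Together with Slc23a3, which was 0.46 higher in cortex without being called and fell by 1.03 in outer medulla, these were the 3 of 23 measured late proximal tubule (S3) genes that were called (13%, against 1.62% of all genes). The difference was below 0 in 22 of the 23, with a median of -0.60, and 17 were at an unadjusted p under 0.05, against 15.2% of all genes. The mean level of that list was 10.34, 10.33 and 10.37 in control outer medulla and 9.72, 9.16 and 9.94 in congestive outer medulla, and 9.08 to 9.57 in control and 9.17 to 9.40 in congestive cortex. Number 2 was the lowest of the congestive outer medulla arrays here, as it was for the cortex markers. The early proximal tubule list had 0 of 26 called (limma), against 1.62% of all genes, and a median of -0.37. Its difference was also below 0 in 21 of the 26, and 7 (26.9%) were at an unadjusted p under 0.05, against 15.2% of all genes.

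Enzymes and transporters for drugs and endogenous acids were among the genes with negative differences. Of 34 measured cytochrome P450 and conjugating enzymes 6 were called (17.6%), all negative, and of 24 organic ion and drug transporters 3 (12.5%), also negative. Of all genes, 1.62% were called. Cyp1a1, the P450 induced through the aryl hydrocarbon receptor, was 5.86, 6.09 and 7.46 in control outer medulla and 4.42, 4.24 and 4.50 in congestive outer medulla, and 4.45 to 4.64 in all 6 cortex arrays. It thus came down to the level of the cortex, from a control group in which number 3 stood highest (difference -1.99, adjusted p = 0.033, and 0.0604 without the pair terms). Abcb1a, a multidrug transporter, fell by 1.07 in outer medulla (difference -1.01), Gsta3 by 0.68 (difference -0.67) and Nqo1, a quinone reductase, by 0.72 (difference -0.75).

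Of the remaining falls of this class, Anxa13, an annexin of epithelia, was 7.57, 7.11 and 7.81 in control and 5.49, 5.14 and 5.69 in congestive outer medulla (difference -1.81, adjusted p = 0.015). Grpr, the receptor for gastrin-releasing peptide, was 7.00, 7.29 and 6.82 against 4.99, 4.61 and 5.27 (difference -1.85, adjusted p = 0.023, and 0.0536 with the regions paired by number). Both ended near their cortex levels, which were 4.98 ± 0.58 and 5.03 ± 0.05 in the control kidneys, well below the array medians. Pkd2l2, a relative of polycystin 2, and Gng13, a G protein subunit, differed by -1.76 and -1.59. Lpl, lipoprotein lipase, was 10.90, 10.90 and 10.63 against 9.87, 9.54 and 8.91 (difference -1.49, adjusted p = 0.013), and Slc9a3, the sodium-hydrogen exchanger NHE3, was 10.51, 10.59 and 10.52 against 9.54, 9.39 and 9.53 (difference -0.88, adjusted p = 0.015). Sorl1, a sorting receptor, differed by -0.74, and by -0.41 in its dimmer row.

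Of the 50 genes whose rise was limited to the outer medulla, 36 were higher in cortex in the control kidneys. Syt10, a synaptotagmin of regulated secretion, had the largest measured difference of all classes at 2.68 (standard error 0.19, adjusted p = 0.0048). It was 4.97, 5.45 and 4.93 in control and 7.22, 8.41 and 7.32 in congestive outer medulla, and 4.53 to 4.88 in all 6 cortex arrays, where it is not known whether the probes were above background. Guca2a, which encodes the natriuretic peptide guanylin, was 7.56, 6.89 and 7.75 in control and 9.44, 10.07 and 9.55 in congestive outer medulla, and 7.39 to 7.80 in cortex (difference 2.34, adjusted p = 0.024, and 0.0536 with the regions paired by number). In both genes the outer medulla groups did not overlap and no change was called in cortex.

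Secreted ligands of this class included Fgf7, Angpt1 and Ndp. Fgf7, the keratinocyte growth factor that fibroblasts send to epithelium, was 6.14, 6.51 and 5.80 in control and 9.12, 8.79 and 7.89 in congestive outer medulla, and 5.01 to 5.48 in cortex (difference 2.22, adjusted p = 0.0071). Angpt1, the Tie2 ligand that pericytes make for endothelium, was 6.92, 7.26 and 6.88 against 8.92, 8.96 and 8.63 in outer medulla, and 8.73, 8.72 and 8.76 against 9.00, 8.85 and 8.81 in cortex. The congestive outer medulla thus came near the level of the cortex, whose groups were also apart, by a change of 0.15 that was not called (adjusted p = 0.30, difference 1.67, standard error 0.12, adjusted p = 0.0048). Ndp, the Frizzled-4 ligand norrin, was 4.44, 4.39 and 4.24 against 6.20, 6.89 and 6.04 and 3.81 to 4.37 in cortex (difference 2.05, adjusted p = 0.0080). Of 31 measured members of the EGF, HGF, FGF and VEGF list 3 were called (9.68%, against 1.62% of all genes). The third was Btc, betacellulin, which fell by 1.09 in outer medulla.

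Cdkn1c, the cell cycle inhibitor p57 that marks podocytes, rose from 7.29 ± 0.28 to 9.18 ± 0.61 in outer medulla and changed by -0.01 in cortex (difference 1.90, adjusted p = 0.0066). It was 1 of 3 called among 14 measured podocyte genes (21.4%, against 1.62% of all genes), with Ptpro (0.81) and Tcf21 (0.91). The list had 8 differences above 0 and 6 below, with a median of 0.17. Tcf21 is also in the list of pericytes, smooth muscle and myofibroblasts. It was called as higher in both regions, with changes of 1.02 (cortex) and 1.93 (outer medulla). The defining slit diaphragm gene Nphs1 was not called, at 6.47 ± 0.11 and 6.45 ± 0.09 in outer medulla. Aebp1, a carboxypeptidase-like matrix protein, Pf4, platelet factor 4, Adamts17, a secreted protease, Maf, a transcription factor, and Tfpi, the tissue factor pathway inhibitor, rose in outer medulla alone, with differences of 1.45, 1.35, 2.18, 1.11 and 0.62.

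Of the 69 genes that changed in the same direction but unequally, 58 rose in both regions and more in outer medulla, and collagens and other matrix genes were among them. A2m, the proteinase inhibitor alpha-2-macroglobulin, was 5.08, 5.25 and 5.56 in control and 6.27, 6.56 and 6.34 in congestive cortex, and 5.34, 5.29 and 5.16 in control and 8.64, 8.80 and 8.07 in congestive outer medulla. The control levels of the regions overlapped and the congestive levels did not (difference 2.14, standard error 0.19, adjusted p = 0.0066). Of 23 measured collagens 4 were called, Col1a1 (1.03), Col12a1 (0.89), Col1a2 (0.85) and Col4a1 (0.59), all positive. With the regions paired by number, Col1a1, Col1a2 and Col4a1 were not called (adjusted p = 0.052, 0.0596 and 0.0675), and without the pair terms none of the 4 was (0.174 to 0.393). Of 34 crosslinking enzymes, proteases and inhibitors 5 were called, all positive, among them the lysyl oxidase Loxl2 (1.05, adjusted p = 0.0070), Adamts2 (0.97), Adam12 (0.96) and Timp2 (0.86). These 4 calls were lost without the pair terms (adjusted p = 0.0604 to 0.391), and that of Timp2 also with the regions paired by number (0.0539).

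Of 30 matrix glycoproteins and proteoglycans 5 were called with positive differences, Ccdc80 (1.79), Cthrc1 (1.49), Ltbp1 (0.98), Fbn1 (0.71) and Sparc (0.63). The other 2 called had negative ones, Tgfbi (-1.48) and the small proteoglycan lumican, Lum, with a rise of 1.34 for cortex and 0.41 for outer medulla. The medians of the 3 matrix lists, in the order given, were 0.41, 0.25 and 0.18. The shares of their members called were 17.4%, 14.7% and 23.3%, against 1.62% of all genes. Col1a1 illustrates the dependence on pairs, since its arrays spread by 0.40 to 0.61 (SD) within groups and its adjusted p went from 0.027 to 0.393 without the pair terms. Macrophage genes Mrc1, the mannose receptor (0.88), and Ms4a4a (1.13) were the 2 of 29 called in the macrophage list (6.9%, against 1.62% of all genes).

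The 5 genes that rose in both regions and more in cortex included Spp1. Spp1, the tubular injury protein osteopontin, was 9.86, 9.55 and 9.56 in control and 12.53, 12.67 and 12.67 in congestive cortex, and 11.72, 11.90 and 11.46 in control and 12.68, 12.89 and 12.80 in congestive outer medulla. The regions differed by 2.03 in the control kidneys and by 0.16 in the congestive ones, all of which lay between 12.53 and 12.89, near the top of the range as well. The difference was -1.87 (standard error 0.17, adjusted p = 0.0066). Vtcn1, an immune checkpoint ligand, and Serping1, the C1 inhibitor, differed by -0.95 and -0.78.

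Several genes that changed greatly were not called between regions. They were injury and stromal genes, which rose, and Egf and Dnase1, which fell. For Egf the changes were -1.99 (cortex) and -1.07 (outer medulla), and for Dnase1 -2.92 (cortex) and -2.69 (outer medulla). Havcr1, the proximal tubule injury marker KIM1, had changes of 4.84 (cortex) and 5.02 (outer medulla), with a difference of 0.17 (standard error 0.41, adjusted p = 0.90). Clu, clusterin, differed by -0.48 (standard error 0.11, adjusted p = 0.085), Fn1, fibronectin, by 0.33 (0.12, 0.26), Tagln, transgelin, by 0.35 (0.21, 0.50), Vim, vimentin, by 0.25 (0.18, 0.59), Pdgfrb by 0.50 (0.11, 0.069), Egf by 0.91 (0.28, 0.17) and Dnase1 by 0.23 (0.39, 0.85), with standard error and adjusted p in parentheses. Clu was called without the pair terms (adjusted p = 0.0483), and both Clu and Pdgfrb were with trend and robust options (0.00995 and 0.00914) and with the dim genes left out (0.0242 and 0.0179). Pdgfra, the fellow receptor of Pdgfrb, was called just inside the threshold (0.75, standard error 0.14, adjusted p = 0.04996). A p above the threshold does not show that these genes changed alike in the regions.

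Genes of energy metabolism were called in some lists and not in others. In fatty acid oxidation and ketone bodies, 30 of 30 measured genes had a difference below 0 (median -0.35). Of these 3 were called (10%, against 1.62% of all genes), Acox2 (-0.95), Eci1 (-0.82) and Bdh1 (-0.72). At an unadjusted p under 0.05 (limma) there were 20 of the 30 (66.7%, against 15.2% of all genes). The list's mean level was 9.73 to 9.77 in control and 9.18, 9.01 and 9.39 in congestive outer medulla, and 9.81 to 9.86 in control and 9.64 to 9.74 in congestive cortex. For the subunits of respiratory complex I, 32 of 33 were below 0 (median -0.23), and for complexes II to V 33 of 34 (median -0.21), but 0 were called in each (limma), with 8 and 3 at an unadjusted p under 0.05, against 15.2% of all genes. Lists of endothelium, intercalated cells, neutrophils, lymphocytes, chemokines, the cell cycle, hypoxia-inducible factor targets, the unfolded protein response, the circadian clock, glycolysis, ribosomal proteins and metallothioneins also had 0 called, with medians of -0.13 to 0.20. In all, 15 lists with 382 measured genes had 0 called, against 1.62% of all genes. At an unadjusted p under 0.05 (limma) they held 58 genes, against 15.2% of all genes. Neutrophil genes had mean levels of 4.75 to 4.94, below the array medians.

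**Figure D5:**
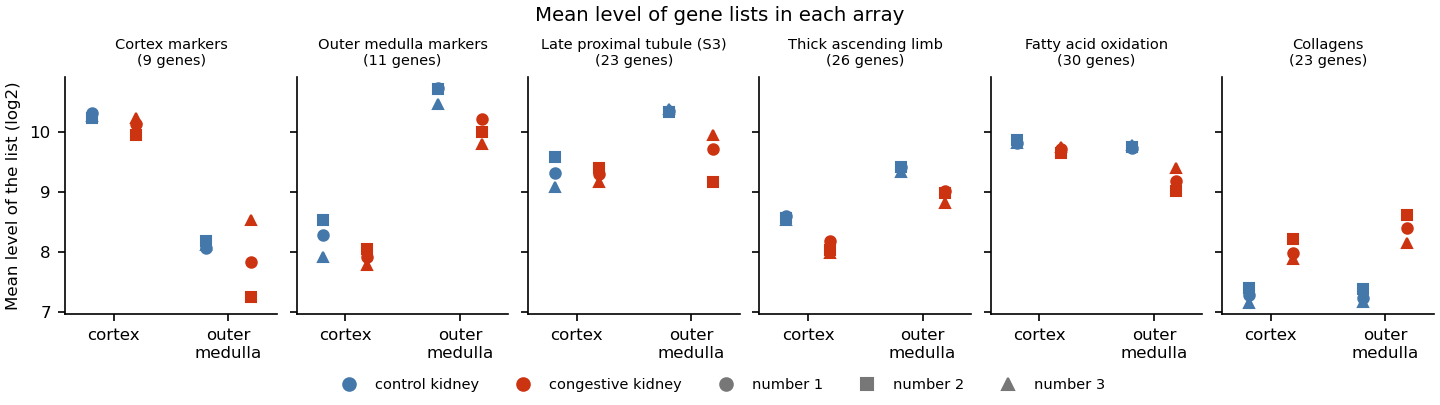
Mean level (log2) of the measured genes of 6 lists in each array, by region, with control kidneys in blue, congestive kidneys in red and replicate numbers by symbol. In outer medulla the late proximal tubule and fatty acid oxidation lists were lower in all 3 congestive arrays, the cortex markers spread from 7.25 to 8.53 there, and the collagen list rose in both regions.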

How the data were processed

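For 12 tissue samples, RNA levels were read with the GeneChip Rat Gene 2.0 ST array. The deposited values are log2 values per transcript cluster that the authors made with Affymetrix Expression Console and normalized between arrays. Version and summarization method were not given in the sources used here, and the log2 scale was inferred from the range of the values (1.21 to 13.5). Background signal was not used, so signal over background is unknown, and the number of arrays limits the precision. Of 36685 rows, 18511 carried 1 symbol. A gene was represented by its brightest row, which gave 18166 genes with no filter. Rows with several symbols (575) or none (17599) were left out. Some items are not reported here.

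The 12 arrays were fitted in limma 3.58.1 (R 4.3.3) with 6 blocks, each setting a congestive against a control kidney of the same region and number, followed by eBayes (4 residual and 3.96 prior degrees of freedom). The contrast was the outer medulla change minus the cortex change, adjusted by Benjamini-Hochberg over all genes. Pairs rest on the labels' numbers and the study's comparison within animals. For number 3 in cortex the title was used, since the source name gives another number. Same-numbered arrays, centred on their group, correlated across genes with r of -0.000317, 0.137 and 0.344 for the cortex numbers, and of 0.169, 0.250 and 0.207 for outer medulla. An exact permutation test of 3 against 3 cannot go below 0.1 and was not used. In simulated data on 18166 genes, 36%, 74%, 90% and 94% of interaction differences of 0.6, 1, 1.5 and 2 were recovered, with 6 false calls. The simulation gave each gene the same spread in all arrays and built in true pairs. Its shares need not hold here, where markers varied more in the congestive outer medulla and pairs rest on labels.

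The classes, 47 gene lists and motifs were chosen with earlier results of these data known. By rule, the genes to name were up to 6 per class and direction of largest difference, with the same sign in all 3 numbers, up to 4 called genes per list, and genes the study names. The Results do not describe all of these. Among those left out are Apobec1 (difference 1.77), Gabrp (1.59), Trpa1 (1.39), Or4d10 (-1.31), Vcam1 (1.05) and Azgp1 (-1.05). The Results also name further class or list members chosen after their values were seen. Promoters and gene IDs are RefSeq's (GRCr8).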

Additional observations from a re-analysis of the deposited data

Results flagged for a closer look

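The regions differed in their response for 294 genes by the test of the difference itself, 146 with a higher and 148 with a lower change in outer medulla. Of these, 35 had opposite responses, 28 cortex-limited and 135 outer medulla-limited ones. For the genes of opposite direction the differences between regions were 2.18 for Ptgs2, 1.85 for Cilp, 1.39 for Plbd1, 1.12 for Cpm, 1.11 for Phactr1 and 1.01 for Acsf2. They were -1.78 for Afm, -1.66 for Igf1, -1.57 for Melk, -1.33 for Pigz, -1.32 for Cryab and -1.30 for Pld1.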

How the results depend on the processing

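All 294 differences kept their sign under every alternative that was fitted to genes and tested them. These alternatives reused the arrays by which the genes had been picked, so this is no separate support. Of the 294 calls, 121 were kept without the pair terms, 183 with the regions paired by number as a replicate block, 291 with trend and robust options and 283 with quantile normalization added. Genes of the report that lost the call with no replicate block (adjusted p up to 0.406) were Abcb1a, Ace, Acox2, Adam12, Adamts2, Afm, Atp2b4, Btc, Cldn19, Col12a1, Col1a1, Col1a2, Col4a1, Cryab, Cyp1a1, Cyp2j4, Eci1, Gldc, Gng13, Gsta3, Gstp1, Hsd17b2, Hspa2, Igfbp5, Klk1c10, Klk1c9, Loxl2, Lum, Melk, Mlana, Mrc1, Ms4a4a, Nqo1, Pdgfra, Phactr1, Pigz, Slc22a24, Slc23a3, Slc41a2, Sorl1, Tcf21, Tgfb2, Tgfbi, Timp2, Tlr12, Ust5r and Vtcn1. With the replicate block across regions (adjusted p up to 0.0931) they were Col1a1, Col1a2, Col4a1, Grpr, Gsta3, Guca2a, Igfbp5, Klk1c10, Ltbp1, Ms4a4a, Nqo1, Pdgfra, Slc22a24, Slc23a3, Sorl1, Tfpi, Tgfb2, Timp2, Vtcn1 and Wnk1. These lists cover only those genes named by rule that the Results describe, and not the further ones. Over all 103 called genes named by rule, the losses were 59 and 28. The cause of the shifts below was not tested, beyond the fewer arrays, genes or pairs that each setting uses.

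For all genes, higher, lower, opposite, cortex-limited and outer medulla-limited genes, in this order, the counts were 149, 77, 72, 12, 16 and 83 with no replicate block. They were 785, 348, 437, 67, 107 and 363 with trend and robust options, and 681, 295, 386, 66, 88 and 306 when genes with a mean level under the median gene were left out. Opposite genes numbered 18 with the replicate block across regions. With all rows of the value table tested, 34 rows were called, 19 higher and 15 lower. Without 1 number in both regions the counts were 0 to 43, 0 to 26, 0 to 17, 0 to 3, 0 and 0 to 20, at 2 residual degrees of freedom. Alternatives chosen after seeing the data left out the pair of 1 region, with 45 (outer medulla number 1) to 389 (outer medulla number 3) genes called in all, 26 to 176 higher, 19 to 213 lower, 5 to 34 opposite, 3 to 22 cortex-limited and 21 to 193 outer medulla-limited. Limits of 0.2 and 0.5 and the mean of a gene's rows kept every count within 1.5 times.

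Among genes not called, the difference of Dnase1 ranged from -0.24 to 0.63 and that of Havcr1 from -0.30 to 0.63 when pairs were left out. The difference of Dnase1 reversed to -0.09 without replicate 2 and to -0.24 without its cortex pair. That of Havcr1 reversed to -0.14 without replicate 2, to -0.11 without cortex number 1 and to -0.30 without outer medulla number 2.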
